A study of Mus musculus with 58 samples.

Results

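The 10 genes Acly, Acaca, Fasn, Scd1, Scd2, Fads1, Fads2, Elovl5, Elovl6 and Acsbg1 encode enzymes that make fatty acids, lengthen them, insert double bonds and activate them. They were picked by symbol and not by a cut on their values, though with earlier results of these data known. All 10 were found by Ensembl identifier among the 18088 genes of the table. RNA was sequenced from the prefrontal cortex of 58 C57BL/6J mice, 30 females and 28 males, each giving a library of its own. The mice were labelled Tanc2 wild type (WT) or heterozygous (HT) and had received a vehicle, the antidepressant fluoxetine, which blocks serotonin reuptake, or lithium, a mood stabiliser, through their mother's milk from postnatal day 3 to postnatal day 24, and all were sampled at postnatal day 25. The 6 arms of genotype and drug held 9 WT vehicle, 10 WT fluoxetine, 10 WT lithium, 10 HT vehicle, 10 HT fluoxetine and 9 HT lithium mice. Doses, litters and the part of Tanc2 that the heterozygous allele lacks are not given in the sources used here, and since the drug passed through the dam, pups of 1 litter may share its exposure. The p-values measure the spread between these mice.

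Some properties of the whole series touch what follows. Recovered totals ran from 23270000 to 37800000 reads per library, with a median of 27910000. Tanc2 itself showed no lower level under the HT label: vehicle mice had 7683 to 8636 normalized reads when labelled HT and 6939 to 8005 when labelled WT, so the labels were not checked by this gene and the arms are called HT-labelled and WT-labelled. Reads of the gene model Gm10221 were present in 27 libraries, which were all 19 lithium libraries, 5 HT-labelled and 3 WT-labelled fluoxetine females, and in no vehicle library or fluoxetine male. Lithium against vehicle therefore cannot be told apart from whatever sets those libraries apart. The same holds for fluoxetine against vehicle in HT-labelled females and for lithium against fluoxetine in males of either label. All 6 markers of cortical neurons were found, with a summed value of 11319 to 17351 normalized reads per library. Markers of olfactory bulb and neuroblasts summed to between 2541 and 31203, so their level varied more than that of cortical neurons within arms.

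In fatty acid synthesis, citrate exported from mitochondria is cleaved to acetyl-CoA by ATP citrate lyase (Acly), carboxylated to malonyl-CoA by acetyl-CoA carboxylase (Acaca) and built into palmitate by fatty acid synthase (Fasn). Elovl6 lengthens saturated chains, stearoyl-CoA desaturases (Scd1, Scd2) make monounsaturated chains, and Fads1, Fads2 and Elovl5 desaturate and lengthen dietary precursors towards arachidonic and docosahexaenoic acid. Acsbg1 joins long-chain fatty acids to coenzyme A. In the developing brain these lipids supply growing neurites and the myelin of oligodendrocytes, astrocytes pass lipids to neurons, and many of the genes are targets of the sterol regulatory element binding proteins (SREBPs).

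Acly, Acaca and Fasn lie on chromosome 11 of GRCm38, Acly at chr11:100476353-100528000 on the minus strand, Acaca at chr11:84129672-84401651 on the plus strand and Fasn at chr11:120805846-120824547 on the minus strand. Both pairs of relatives lie side by side on chromosome 19. Scd2 (chr19:44293674-44306864, plus strand) and Scd1 (chr19:44394455-44407879, minus strand) are 87.6 kb apart, and Fads2 (chr19:10062765-10101746, minus strand) and Fads1 (chr19:10182888-10196877, plus strand) are 81.1 kb apart. Scd1 and Scd2 are similar in sequence, so reads assigned to one may come in part from the other, and their values are less certain for it. Elovl5 (chr9:77917364-77984519, plus strand), Acsbg1 (chr9:54604877-54661870, minus strand) and Elovl6 (chr3:129532355-129638495, plus strand) stand alone.

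Promoter windows of 250 bases before the RefSeq start (build GRCm38.p6) were found for 7 of the 10 genes, without an entry for Scd1, Scd2 and Fads1. The windows of Fasn, Acly and Elovl5 are shown because Fasn was the gene that passed a test below, Acly ran with it from library to library and Elovl5 ran against it. Each is written 5′ to 3′ on the strand of the gene, with matches to the searched motifs, on either strand, in capitals. The Fasn window is chr11:120824548-120824797 (minus strand), that of Acly chr11:100528001-100528250 (minus strand) and that of Elovl5 chr9:77917115-77917364 (plus strand).
Fasn: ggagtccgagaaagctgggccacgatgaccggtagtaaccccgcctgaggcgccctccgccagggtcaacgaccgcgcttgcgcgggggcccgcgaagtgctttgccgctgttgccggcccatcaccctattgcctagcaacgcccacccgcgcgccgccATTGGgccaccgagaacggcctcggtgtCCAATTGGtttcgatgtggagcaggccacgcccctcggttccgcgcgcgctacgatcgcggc
Acly: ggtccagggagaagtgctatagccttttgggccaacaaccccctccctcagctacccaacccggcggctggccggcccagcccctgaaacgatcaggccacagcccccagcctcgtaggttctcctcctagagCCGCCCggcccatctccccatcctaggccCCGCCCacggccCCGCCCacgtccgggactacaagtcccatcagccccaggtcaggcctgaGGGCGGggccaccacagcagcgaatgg
Elovl5: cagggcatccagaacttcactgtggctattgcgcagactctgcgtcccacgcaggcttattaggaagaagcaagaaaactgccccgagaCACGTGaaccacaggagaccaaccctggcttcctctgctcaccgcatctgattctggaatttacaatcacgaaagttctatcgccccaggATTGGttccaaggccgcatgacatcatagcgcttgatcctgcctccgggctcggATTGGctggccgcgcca
The motifs were the sterol regulatory element TCACNCCAC, the CCAAT box CCAAT, the E-box CACGTG and the GC box GGGCGG. The sterol regulatory element was in 0 of the 7 windows and in 1.05% of all 32851 windows of this length. The CCAAT box was in 3 (Fasn, Elovl5 and Acsbg1) against 33.8% of all windows, and the Fasn window holds it 3 times, with 2 of the matches overlapping on opposite strands. The GC box was in 2 (Acly, with 4 matches, and Fads2) against 32.7%, and the E-box in 1 (Elovl5) against 6.02%. The Acaca window belongs to a start inside the gene. These matches describe letters only, and a window without a match says nothing of whether a factor binds elsewhere.

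Levels between genes were compared as normalized reads per kilobase of the principal transcript. In WT-labelled vehicle mice the most abundant was Scd2, the main stearoyl-CoA desaturase of the brain, at 6262 ± 164 (SD, n = 9) per kb. Fads1 followed at 1584 ± 54.5 and Fads2 at 1523 ± 33.1 per kb, with overlapping ranges. Below them came Acsbg1 (1158 ± 73.0), Acly (1109 ± 44.6) and Scd1 (982 ± 54.8), each overlapping the next. Fasn (823 ± 62.6) and Elovl5 (694 ± 49.4) overlapped as well, and so did the lowest pair, Acaca (329 ± 21.9) and Elovl6 (319 ± 14.3). The order was nearly fixed over the 6 arms. Fads2 stood above Fads1 in HT-labelled lithium mice, and Acaca and Elovl6 changed places in 3 arms. Lengths from all annotated exons together change this order in the same WT vehicle arm. They place Fads2 (1456 ± 31.7) above Fads1 (1139 ± 39.2 per kb) without overlap and Scd1 (969.6 ± 54.1) above Acsbg1 and Acly with overlap. Acaca then lies at 183 ± 12.2 per kb, below Elovl6 at 295 ± 13.2 without overlap, so these places rest on the transcript chosen.

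**Figure D1:**
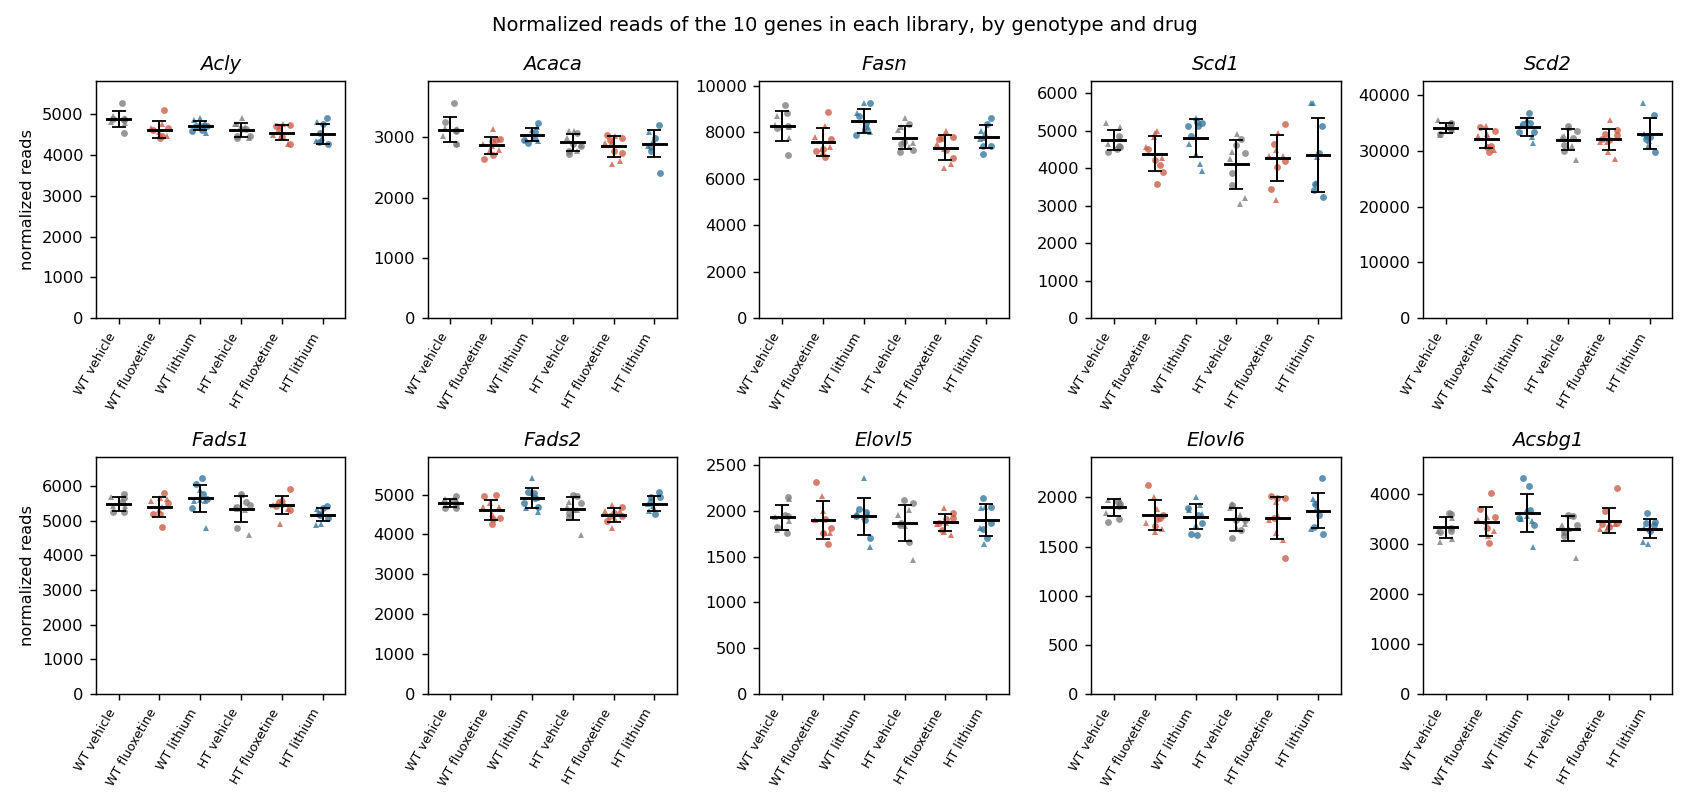
Normalized reads (vertical axes, from 0) of each gene in all 58 libraries, by genotype label and drug (horizontal axes). Circles are females and triangles males, and black bars are the mean ± SD of the 9 or 10 libraries of an arm. Arms overlap for every gene, and Scd1 spreads most within arms.

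The plot of values by library shows how widely each gene varied. Within groups of genotype, drug and sex, the SD of Acly was 0.06 on the log2 scale, or 4.18%, lower than that of all but 7.95% of the 1396 genes of like level. Fads2 (4.99%), Fads1 (5.73%), Acaca (6.08%), Scd2 (6.10%), Fasn (7.48%) and Acsbg1 (7.75%) followed. Elovl6 (8.98%) and Elovl5 (10.02%) varied more. Scd1 had the widest spread of the 10, 14.8%, at the 96.6th percentile of the 1444 genes of its level. Of the 10, 5 lay below the median spread of genes of like level (Acly, Fads2, Fads1, Acaca and Scd2, up to percentile 40.2) and 5 above it (Fasn, Acsbg1, Elovl6, Elovl5 and Scd1, from percentile 54.5). Its lowest library had 3046 normalized reads, an HT-labelled vehicle male, and its highest 5748, an HT-labelled lithium male.

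The first question was whether the genes differed between genotype labels. All 10 had a lower estimate in HT-labelled than in WT-labelled vehicle mice, with a median log2 difference of -0.08 against 0.00034 over all 17925 genes tested. None passed limma with Benjamini-Hochberg adjustment over all genes, where 0% of genes were called, nor did any by edgeR (0% of genes) or DESeq2 (0.0167%). Before adjustment 4 of the 10 had a p under 0.05 by each of the 3 tools. Scd1 had the widest estimate, -0.23 ± 0.09 (SE, log2; adjusted p = 0.947 by limma), with 8 of 10 HT-labelled mice below the WT mean of their sex. HT-labelled vehicle mice ran from 3046 through a median of 4329 to 4899 normalized reads of Scd1, and WT-labelled ones from 4431 through 4640 to 5201. The WT mice were thus narrowly grouped, and the lower HT mice reached below all of them while others lay among them. Acly had 4417, 4637 and 4904 normalized reads (lowest, median and highest) when labelled HT and 4527, 4869 and 5281 when labelled WT, a log2 difference of -0.08 ± 0.03 with an adjusted p of 0.947 by limma. Myelin markers had the same sign: all 10 of the myelinating oligodendrocyte list had a lower estimate in the HT-labelled vehicle mice, with a median of -0.23, none of them called. Their summed level was 72959 to 149250 in HT-labelled and 94268 to 183510 in WT-labelled vehicle mice. With the mean of these markers as a covariate 0 of the 10 were called, as in the main fit. Since none was called in either, this cannot decide their part in the estimates. In bulk tissue fewer cells of a type and less RNA per cell cannot be told apart.

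Among fluoxetine mice the differences between genotype labels ran from -0.05 to 0.01 on the log2 scale, with a median of -0.02. None of the 10 was called by limma (0% of all genes), edgeR (0%) or DESeq2 (0.0112%), and 0 had an unadjusted p under 0.05.

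Lithium mice gave 9 lower estimates of 10 for the HT label, with a median of -0.07. None passed limma (0% of all genes called), edgeR (0%) or DESeq2 (0.124%), and 4 had an unadjusted p under 0.05: Acly, Fasn, Fads1 and Acsbg1. Fads1, a desaturase of the polyunsaturated branch, ranged from 4886 through 5194 to 5410 normalized reads in HT-labelled lithium mice and from 4789 through 5599 to 6222 in WT-labelled ones. All 9 HT-labelled mice were below the WT mean of their sex, and the ranges overlapped, with 1 WT male, at 4789, below every HT-labelled mouse. The log2 difference was -0.12 ± 0.04 (adjusted p = 0.175 by limma), and without WT lithium male 1 it was -0.15 ± 0.04 and passed (adjusted p = 0.0408). Acsbg1 was also below the WT mean in 9 of 9 mice, at 3006, 3321 and 3618 against 2946, 3550 and 4322 normalized reads (lowest, median and highest), and its difference of -0.13 ± 0.05 did not pass (adjusted p = 0.28 by limma). In the same comparison 7 of 7 endothelial markers had lower estimates (median -0.10) and 10 of 10 myelin markers did (median -0.17), none called. With the myelin marker mean as a covariate 0 of the 10 genes were called, as without it. The part of the endothelial markers was not tested.

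Fluoxetine was then compared with vehicle. In WT-labelled mice 9 of the 10 genes had a lower estimate with fluoxetine, with a median of -0.07, and 0 were called where 1.38% of all genes were (248 of 17925), by limma, and none by edgeR (1.38%) or DESeq2 (1.68%). Unadjusted, 4 had a p under 0.05: Acly, Acaca, Fasn and Scd2. Acaca, the malonyl-CoA step, ran from 2648 through 2875 to 3144 normalized reads with fluoxetine and from 2886 through 3128 to 3579 with vehicle. The arms overlapped, with 9 of 10 fluoxetine mice below the vehicle mean of their sex, and the log2 difference was -0.12 ± 0.04 (adjusted p = 0.137 by limma). Fasn had 6940, 7324 and 8891 normalized reads with fluoxetine and 7012, 8272 and 9180 with vehicle (lowest, median and highest). Its difference was -0.12 ± 0.05 and did not pass (adjusted p = 0.263 by limma). Acsbg1 was the exception in sign, at 0.05 ± 0.05. Gm10221 reads were in 3 of the fluoxetine females and in no fluoxetine male or vehicle mouse. These 3 lay below the 2 without them for Fasn (6940 to 7285 against 7730 and 8891 normalized reads). So they did for Acly (4425 to 4605 against 4669 and 5105) and Acaca (2648 to 2948 against 2951 and 2979), but not for Scd2. The Fasn difference was -0.12 ± 0.06 in females and -0.12 ± 0.07 in males. With a term for those reads, or without their libraries, 0 of the 10 were called. This comparison and the genotype comparison in vehicle mice use the same 9 WT vehicle libraries. The 10 myelin markers had lower estimates here too, with a median of -0.22 and none called. With their mean as a covariate 0 of the 10 genes were called, as without it, which cannot decide their part.

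The same drug in HT-labelled mice gave a median of 0.0035 over the 10 genes, with 6 estimates above 0 and 4 below. None was called by limma, edgeR or DESeq2, while 3.54% of all genes were by limma (635 of 17925), 3.65% by edgeR and 4.91% by DESeq2, and none had an unadjusted p under 0.05. The widest was Fasn, at -0.08 ± 0.05 (adjusted p = 0.351 by limma), with 6478, 7386 and 8072 normalized reads with fluoxetine and 7155, 7580 and 8616 with vehicle. All 5 fluoxetine females of this comparison held Gm10221 reads and no vehicle mouse did, so in females the drug cannot be told apart from them. The difference between the genotype labels in the fluoxetine effect was above 0 for all 10 genes, with a median of 0.05, and 0 passed by limma (0% of all genes), edgeR (0%) or DESeq2 (0.0112%), nor did any have an unadjusted p under 0.05. The fluoxetine effect was thus not shown to differ between labels for any of the 10.

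With lithium against vehicle, 16.3% of all genes were called in HT-labelled mice (2919 of 17925) and 7.47% in WT-labelled mice (1339 of 17925), and none of the 10 was in either. By edgeR the shares were 16.1% and 7.56% and by DESeq2 16.6% and 8.15%, again with none of the 10. Medians over the 10 were 0.02 in HT-labelled and 0.0040 in WT-labelled mice. In the HT-labelled mice none had an unadjusted p under 0.05, and in the WT-labelled mice 1 did. That was Acsbg1, at 2946, 3550 and 4322 normalized reads with lithium and 3047, 3269 and 3626 with vehicle (lowest, median and highest). Of the lithium mice 8 of 10 were above the vehicle mean of their sex, and the log2 difference of 0.12 ± 0.05 did not pass (adjusted p = 0.129 by limma) except without WT lithium male 1 (0.15 ± 0.05, adjusted p = 0.0471). Acly, Acaca, Fasn, Scd2, Fads1, Fads2 and Elovl5 stayed within 0.05 of 0 on the log2 scale in both labels. The 95% intervals are each of a single comparison and were not widened for taking extremes over several. Those for lithium against vehicle carry the limit of the Gm10221 reads. Over the 3 genotype and 4 drug comparisons with vehicle, the intervals for Acly lay between -8.92% and 2.29%, those of Fads2 between -8.28% and 7.56% and those of Fasn between -14.0% and 9.75%. For Scd1 they reached from -24.5% to 19.7%. The interaction of lithium and genotype label was called for none of the 10 by limma (0% of all genes), edgeR (0%) or DESeq2 (0.0223%), with 0 unadjusted p under 0.05. The range was -0.13 ± 0.07 for Acsbg1 to 0.15 ± 0.08 for Elovl6.

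**Figure D2:**
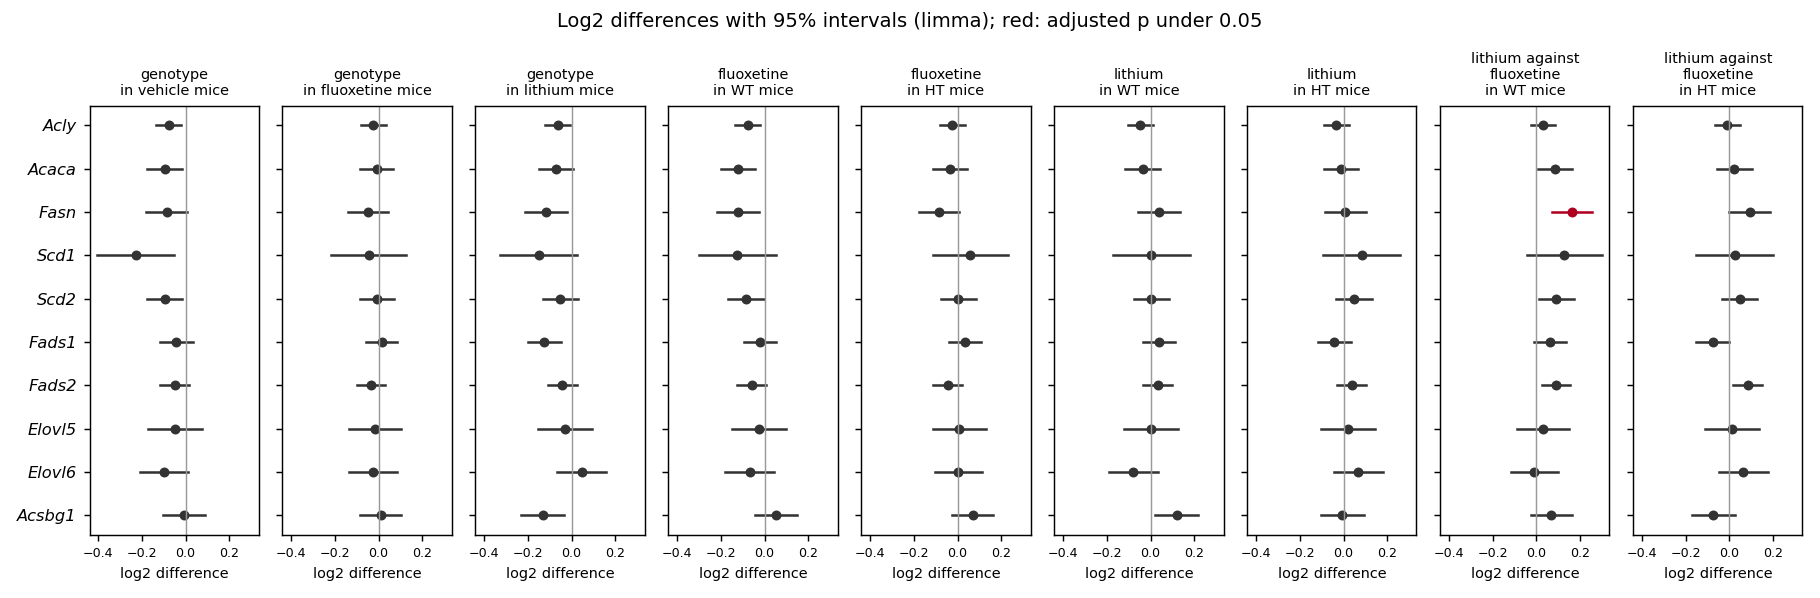
Log2 differences of the 10 genes (points) with 95% intervals (bars, limma) in 9 comparisons, as the first-named drug minus vehicle or fluoxetine, or HT-labelled minus WT-labelled mice. The interval of Fasn for lithium against fluoxetine in WT-labelled mice is the one drawn in red for an adjusted p under 0.05.

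Setting the drugs against each other gave the only call among the 9 comparisons of genotype labels and drugs. In WT-labelled mice lithium against fluoxetine called 9.55% of all genes (1712 of 17925) and 1 of the 10, Fasn, which rose. Fasn ran from 7874 through 8326 to 9281 normalized reads with lithium and from 6940 through 7324 to 8891 with fluoxetine. Every lithium mouse, 10 of 10, was above the fluoxetine mean of its sex, and the ranges still overlapped. The log2 difference was 0.16 ± 0.05 (95% interval 0.07 to 0.25, 11.9% higher, adjusted p = 0.0167 by limma). It was 0.16 ± 0.06 in females and 0.16 ± 0.06 in males, where neither sex alone passed (adjusted p = 0.188 and 0.148 by limma). In males all lithium and no fluoxetine libraries held Gm10221 reads, so there the drugs cannot be told apart from them. In the estimates vehicle lay between the drugs: the fluoxetine estimate against vehicle was below 0 and the lithium estimate was 0.04 ± 0.05, neither called. The vehicle mice themselves had 7012, 8272 and 9180 normalized reads (lowest, median and highest) and overlapped both drugs. A share of 1 in 10 lies near the 9.55% of all genes, of which 5.29% were higher with lithium. By edgeR (9.41% of genes called) 1 of the 10 passed, and by DESeq2 (10.8%) 2 did. With a term for Gm10221 reads, in a fit of the 6 arms and sex, the difference was 0.18 ± 0.06 and no longer passed (adjusted p = 0.0607 by limma, with 5.07% of genes called). Among females that carried those reads, 5 lithium mice had 7874 to 9265 and 3 fluoxetine mice 6940 to 7285 normalized reads of Fasn, without overlap. The 2 fluoxetine females without the reads had 7730 and 8891. Scd1 and Fads1 did not overlap among those carriers either. The share of all genes without overlap at these numbers of mice was not counted. In HT-labelled females, where all 5 lithium and all 5 fluoxetine mice carried the reads, Fasn overlapped, at 7052 to 8610 with lithium and 6910 to 7821 with fluoxetine. Markers of striatal neurons also had higher estimates with lithium in this comparison, 8 of 8, with a median of 0.65 and 2 called. They summed to 6018 to 19162 normalized reads with lithium and 5026 to 6251 with fluoxetine, and their part in the Fasn difference was not tested. Myelin markers had a median of -0.0023 here, with 5 above 0 and 5 below. With their mean as a covariate the number of the 10 genes called stayed at 1.

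Over the 10 genes with Fasn included, 9 of the estimates were above 0 and that of Elovl6 was -0.01 ± 0.05, with a median of 0.08 against -0.0039 over all genes. Beside Fasn none passed, and Acaca, Scd2 and Fads2 had an unadjusted p under 0.05. Acaca was higher in 10 of 10 lithium mice than the fluoxetine mean of their sex, at 0.08 ± 0.04 (adjusted p = 0.162 by limma). Fads2, the desaturase that starts the polyunsaturated branch, had 4569, 4921 and 5410 normalized reads with lithium and 4264, 4610 and 4995 with fluoxetine (lowest, median and highest). Its difference of 0.09 ± 0.03 missed the threshold by limma (adjusted p = 0.0636) and passed by DESeq2 (0.09 ± 0.03, adjusted p = 0.0449). Scd2 gave 0.09 ± 0.04 (adjusted p = 0.146 by limma).

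In HT-labelled mice lithium against fluoxetine called 6.25% of all genes (1121 of 17925) and none of the 10 by limma, nor did edgeR (6.11%) or DESeq2 (7.37%), with 2 unadjusted p under 0.05. Those 2 were the neighbours Fads1 and Fads2, and they went opposite ways. Fads2 was above the fluoxetine mean of its sex in 9 of 9 lithium mice, at 4503, 4763 and 5074 normalized reads against 4164, 4494 and 4752, a difference of 0.08 ± 0.03 (adjusted p = 0.118 by limma). Fads1 was below it in 9 of 9, at 4886, 5194 and 5410 against 4907, 5466 and 5906, a difference of -0.08 ± 0.04 (adjusted p = 0.216 by limma). The ratio of Fads2 to Fads1 was looked at after these values were seen, in reads per kilobase of the principal transcript. It was 0.92 to 1.07 with a median of 1.03 in HT-labelled lithium mice. It was 0.821 to 1.06 with a median of 0.896 in HT-labelled fluoxetine mice, so these arms overlapped too. Markers of olfactory bulb had higher estimates with lithium in this comparison (8 of 8, median 1.12, none called), myelin markers lower ones (10 of 10, median -0.21, none called) and endothelial markers lower ones (7 of 7, median -0.23, 3 called). With the myelin marker mean as a covariate 0 of the 10 genes were called, as without it. The part of the olfactory bulb and endothelial markers was not tested. Fasn gave 0.09 ± 0.05 (adjusted p = 0.247 by limma). Whether the lithium against fluoxetine difference of Fasn differs between the labels was not tested.

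**Figure D3:**
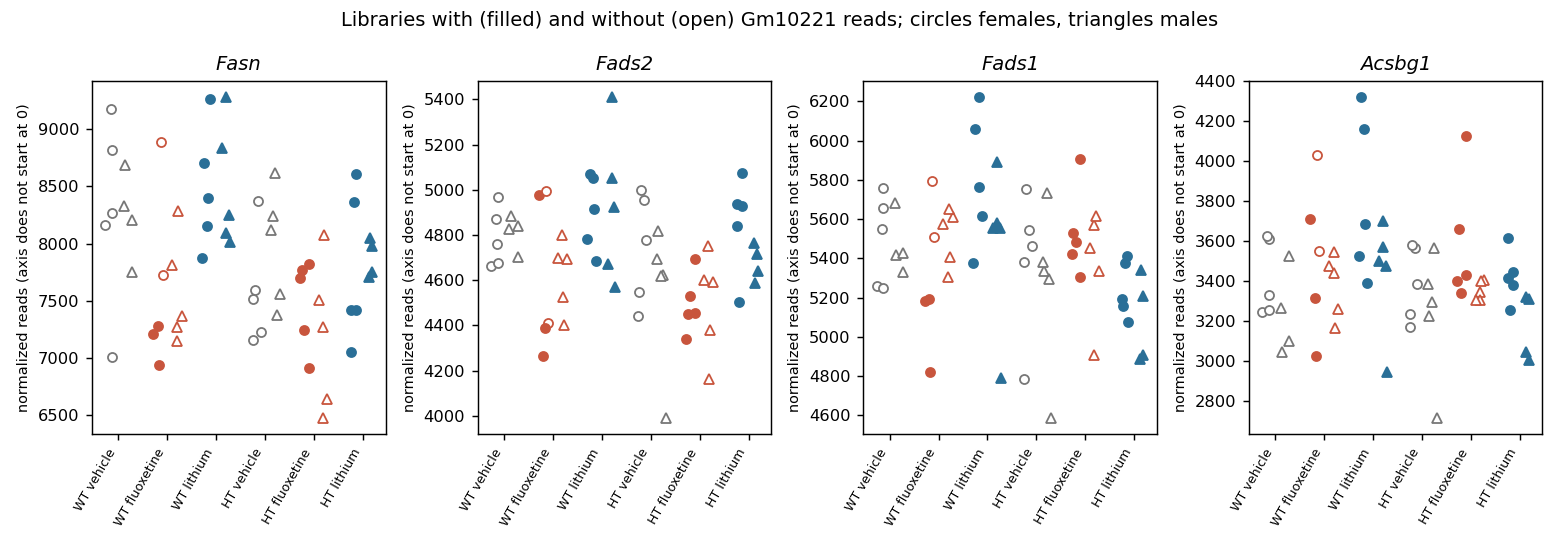
Normalized reads of Fasn, Fads2, Fads1 and Acsbg1 (vertical axes, not from 0) in each library, by genotype label and drug; filled symbols are libraries with Gm10221 reads and open symbols those without, circles females and triangles males. All lithium symbols are filled and all vehicle symbols open, and the WT-labelled fluoxetine females hold both kinds.

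Sex called 0.301% of all genes (54 of 17925) over all arms and none of the 10 by limma, edgeR (0.307%) or DESeq2 (0.463%), with 1 unadjusted p under 0.05. Acsbg1 was that gene, 0.09 ± 0.03 higher in females on the log2 scale (adjusted p = 0.149 by limma). Higher female estimates were also found for 8 of 10 astrocyte (median 0.03), 7 of 7 endothelial (0.11), 7 of 8 microglia (0.07), 6 of 6 oligodendrocyte precursor (0.07) and 6 of 8 olfactory bulb markers (0.10). They were found for 5 of 10 myelin, 3 of 8 neuron, 1 of 6 cortical neuron and 0 of 8 striatal markers. No marker was called. With the myelin or the astrocyte marker mean as a covariate 0 of the 10 genes were called, as without. The part of the other marker lists was not tested. Scd1 had the widest difference between the sexes in each drug comparison other than fluoxetine in HT-labelled mice, where it was -0.10 ± 0.17 (female minus male) beside 0.14 ± 0.09 for Fasn. In WT-labelled females it had 4859 to 5221 normalized reads with lithium and 3564 to 4516 with fluoxetine, without overlap. The share of all genes without overlap there was not counted. In WT-labelled males Scd1 had 3928 to 5332 with lithium and 4275 to 4986 with fluoxetine. The female minus male difference of that effect was 0.42 ± 0.17 and did not pass (adjusted p = 0.589 by limma, 0% of all genes called). For lithium against vehicle in HT-labelled mice the estimate was -0.12 ± 0.12 in females and 0.29 ± 0.13 in males, and that difference did not pass either (adjusted p = 0.9999 by limma, 0% of all genes called).

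No gene of the 4 other lists of the pathway was called between genotype labels by limma, where 0% of all genes were. Beside each count of calls stands the share of its list and then that of all genes tested. Of 29 other fatty acid synthesis and elongation genes, 6 rose and 1 fell with lithium in HT-labelled mice, 24.1% beside 16.3% of all genes. The 4 with the smallest p all rose: Hsd17b12, the ketoreductase of the elongation cycle, by 0.24 ± 0.03 (adjusted p = 2.4e-06 by limma), Elovl4, which builds very long chains, by 0.21 ± 0.04, Acsl3, an acyl-CoA synthetase, by 0.14 ± 0.03, and Slc25a1, the mitochondrial citrate carrier upstream of Acly, by 0.21 ± 0.05. In WT-labelled mice lithium changed 1 of the 29 (3.45% beside 7.47%), Hsd17b12, which rose by 0.12 ± 0.03 (adjusted p = 0.0168 by limma). With a term for Gm10221 reads lithium against vehicle called 0% of all genes in HT-labelled and 0.0167% in WT-labelled mice, and 0 of these lithium calls remained. All lithium and no vehicle libraries hold those reads, so only fluoxetine libraries tell the term apart from lithium. The setting therefore could not decide whether these calls hold. Fluoxetine called none of the 29 in WT-labelled mice (0% beside 1.38%). In HT-labelled mice it called 1 (3.45% beside 3.54%), again Hsd17b12 (0.11 ± 0.03, adjusted p = 0.04 by limma). Lithium against fluoxetine called 2 of the 29 in WT-labelled mice (6.9% beside 9.55%) and 4 in HT-labelled mice (13.8% beside 6.25%). It raised Slc25a1 in both labels (0.17 ± 0.05 in WT and 0.21 ± 0.05 in HT) and lowered Oxsm, the mitochondrial ketoacyl synthase, in both (-0.22 ± 0.05 and -0.20 ± 0.05). In the HT-labelled mice it also raised Elovl4 (0.16 ± 0.04) and Hsd17b12 (0.12 ± 0.03). Slc25a1 and Fasn were called in WT-labelled mice and Acly and Acaca were not, but no test compared these genes with each other. With the Gm10221 term neither of the 2 calls in WT-labelled mice remained, and of the 4 in HT-labelled mice Slc25a1 did (1.22% of all genes called).

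Of 11 SREBP regulators 2 fell with fluoxetine in WT-labelled mice and none rose (18.2% beside 1.38%). Srebf2, the form tied mainly to sterol synthesis, fell by 0.18 ± 0.04 (adjusted p = 0.0046 by limma), and Insig1, which holds SREBPs in the endoplasmic reticulum and is their target, fell by 0.33 ± 0.05. Srebf1, the form tied mainly to fatty acid synthesis, stood at 0.11 ± 0.08 there and was not called (adjusted p = 0.708 by limma). It was not called in any of the 12 comparisons. In HT-labelled mice fluoxetine lowered 1 of the 11 (9.09% beside 3.54%), Insig1 (-0.24 ± 0.05). Lithium lowered 3 there (27.3% beside 16.3%), Mbtps1 (-0.10 ± 0.03), Insig2 (-0.14 ± 0.04) and Nr1h2 (-0.12 ± 0.04). In WT-labelled mice lithium called none (0% beside 7.47%). Against fluoxetine, lithium raised 1 of the 11 in each label (9.09% beside 9.55% in WT and 6.25% in HT), Insig1 (0.19 ± 0.05 and 0.27 ± 0.05).

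Of the 20 sterol synthesis enzymes, 11 fell with fluoxetine in WT-labelled mice and none rose (55% beside 1.38%, median -0.23), among them Idi1 (-0.40 ± 0.06), Cyp51 (-0.31 ± 0.06), Sqle (-0.30 ± 0.06) and Hmgcs1 (-0.33 ± 0.07). Beside them the 10 fatty acid genes had a median of -0.07 and no call. In HT-labelled mice fluoxetine lowered 1 of the 20 (5% beside 3.54%), Lss (-0.17 ± 0.04). Lithium against vehicle lowered 2 in WT-labelled mice (10% beside 7.47%), Idi1 (-0.25 ± 0.06) and Tm7sf2 (-0.17 ± 0.05). In HT-labelled mice it called 3 (15% beside 16.3%), and among the genes reported here it lowered Tm7sf2 (-0.20 ± 0.05) and raised Sqle (0.18 ± 0.06). Lithium against fluoxetine raised 8 of 20 in WT-labelled mice (40% beside 9.55%) and 5 of 20 in HT-labelled mice (25% beside 6.25%), Sqle and Cyp51 among both.

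Of 19 fatty acid oxidation enzymes, fluoxetine called none in either label (0% beside 1.38% in WT and 3.54% in HT). Lithium raised 2 in WT-labelled mice (10.5% beside 7.47%), Hadha by 0.12 ± 0.03 and Etfdh by 0.13 ± 0.04. In HT-labelled mice it raised 1, Slc25a20 (0.16 ± 0.05), and lowered 2, Acaa1a (-0.20 ± 0.05) and Cpt1c (-0.12 ± 0.04), a share of 15.8% that lies near the 16.3% of all genes. Lithium against fluoxetine raised 3 of the 19 in WT-labelled mice (15.8% beside 9.55%), Etfdh (0.14 ± 0.04), Acadvl (0.13 ± 0.04) and Hadha (0.09 ± 0.03), and lowered 1 in HT-labelled mice (5.26% beside 6.25%), Acaa1a (-0.21 ± 0.05).

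With the Gm10221 term none of the lithium against vehicle calls of these 3 lists remained either, and for them too that setting could not decide. Of the fluoxetine calls in WT-labelled mice, 6 of the 11 sterol enzymes and Insig1 remained and Srebf2 did not (0.72% of all genes called), and without the libraries that hold those reads 4 sterol enzymes, Hmgcs1, Idi1, Sqle and Cyp51, and Insig1 did (0.781%). In HT-labelled mice Lss and Insig1 remained with the term (1.03%) and neither did without those libraries (0.536%), while Hsd17b12 was lost in both. Of the lithium against fluoxetine calls, 5 of the 8 sterol enzymes and Hadha remained with the term in WT-labelled mice, and 4 of the 5 sterol enzymes and Insig1 in HT-labelled mice.

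Within groups the 10 genes did not move as 1 block. Pearson's r was computed over the 58 libraries after subtracting each group's mean from log2 values, and it describes libraries that share depth, dissection and cell make-up. Of the 45 pairs 38 were positive, with a median r of 0.31. The enzymes of the synthesis route made the tightest set, with r of 0.76 for Acaca and Fasn, 0.76 for Acly and Fasn and 0.68 for Acly and Acaca. Another set joined the polyunsaturated branch with the acyl-CoA synthetase, at 0.74 for Fads1 and Acsbg1 and 0.68 for Fads2 and Acsbg1. Scd1 and Scd2 stood at 0.64, where reads shared between them may add to the value. Fads1 and Fads2 themselves stood at 0.45. Between the sets r depended on the gene: Fads1 ran with all of Fasn (0.39), Acly (0.36) and Acaca (0.31), while Fads2 stood at 0.21 with Acly, 0.01 with Fasn and -0.12 with Acaca, and Acsbg1 at 0.23, 0.06 and -0.06. Fasn and Elovl5 ran against each other (-0.33).

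**Figure D4:**
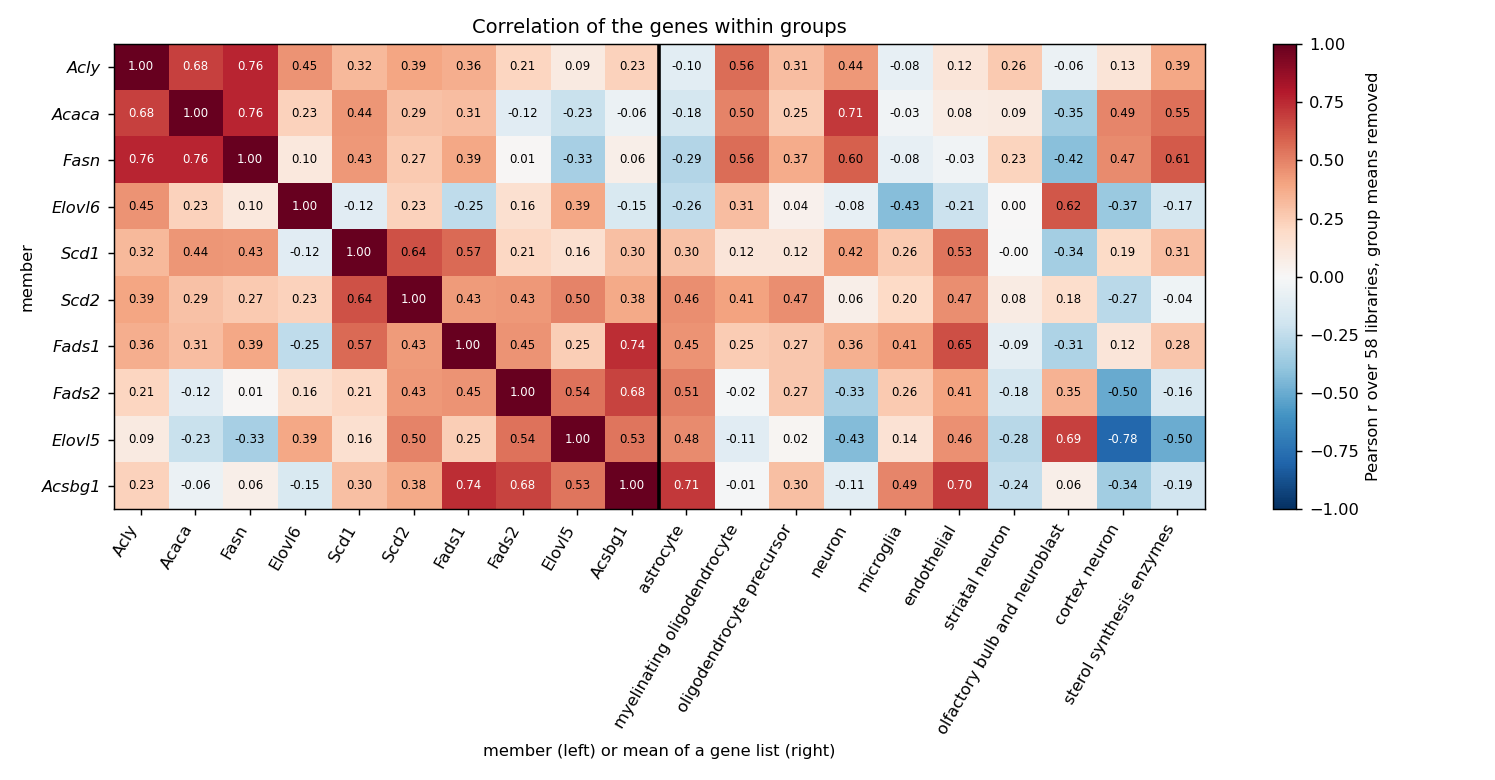
Pearson's r over 58 libraries, with group means removed, between the 10 genes (left of the line) and between each gene and the mean of a marker or pathway list (right of the line); red is positive and blue negative. Acly, Acaca and Fasn form one red block and Fads1, Fads2 and Acsbg1 another, and Elovl5 is bluest against cortical neuron markers (r = -0.78).

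The sets differed in part in the cell markers they ran with. Acsbg1 followed the astrocyte list (r = 0.71) and the endothelial list (0.70), and Fads2 (0.51), Elovl5 (0.48), Scd2 (0.46) and Fads1 (0.45) followed the astrocyte list less closely. Fads1 (0.65), Scd1 (0.53), Scd2 (0.47), Elovl5 (0.46) and Fads2 (0.41) also ran with the endothelial list. Acly (0.56), Acaca (0.50) and Fasn (0.56) ran with the myelinating oligodendrocyte list, as Scd2 did at 0.41. Acaca (0.71), Fasn (0.60) and Acly (0.44) also ran with the neuron list, and Fasn with the sterol synthesis enzymes (0.61). Elovl5 ran against cortical neuron markers (-0.78) and with those of olfactory bulb and neuroblasts (0.69), and Elovl6 also ran with the latter (0.62). Among 12440 genes with a mean of at least 100 normalized reads, those most like the mean of the 10 were Dennd5a (r = 0.78), Kcng4 (0.72), Arrb1 (0.71), Kcnj10 (0.70), the potassium channel of astrocytes, and Lrp4 (0.70).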

How the data were processed

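The deposited table gives a signal per gene and library, reads divided by a size factor of the library. The authors' tools were DESeq2 1.19.11, Salmon 0.11.2 and R 3.6.0 with the build GRCm38, per the submitters' processing notes, and per the labels' protocols the libraries were made with a stranded kit for mRNA. Options are not given in the sources used here. In each library 100% of values were whole multiples of a step (0.788 to 1.30) within 0.01, so reads were recovered. GENCODE matched 18077 of 18088 identifiers.

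The test was limma 3.58.1 with trend (R 4.3.3) on log2(value + 1), with 12 groups of genotype, drug and sex in 1 fit and both sexes weighed equally, on the 17925 genes that reached 10 normalized reads in 4 or more libraries, all 10 genes among them. A call is a Benjamini-Hochberg adjusted p under 0.05 over all genes of a comparison, and values with ± are log2 differences with SE unless SD is named. A fold on this scale understates changes of low genes. The edgeR 4.0.16 quasi-likelihood test and the DESeq2 1.42.0 Wald test ran on recovered reads. For lithium against fluoxetine in WT-labelled mice, edgeR called 1686 genes and DESeq2 1829. The fit was tested on simulated counts. Further alternatives were pseudocounts of 0.1 and 5, no filter, a filter of 50 in 10 libraries, only the groups compared, the replicate number as a block, a term for Gm10221 reads, only libraries without them and leaving out each library. Both Gm10221 settings fitted the 6 arms and a term for sex in place of the 12 groups. Their results therefore differ from the main fit in design as well. Covariates from myelin or astrocyte markers, lithium against fluoxetine in each sex, and the Gm10221 settings for the other lists were chosen after seeing the data.

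The 10 genes and all lists were chosen with earlier results of these data known. Named were the 10, up to 4 called genes per list by smallest p, Srebf1, Srebf2 and the 5 genes most like the mean of the 10, passing over predicted transcripts. The values of 1 listed gene are not reported here.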

Additional observations from a re-analysis of the deposited data

Results flagged for a closer look

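Of 120 groups of 4 or 5 libraries (10 genes in 12 groups), 4 held a library set far from the rest of its group by Dixon's ratio, where chance gives about 1 group in 20. Acaca had 3143.7 normalized reads in WT fluoxetine male 1, above the 2787 to 2890 of the other males of its group. Scd1 had 4859.2 in WT lithium female 5, below the 5120 to 5221 of the others, although all 5 were above the fluoxetine females. Fads2 had 3991.3 in HT vehicle male 1, below the 4617 to 4818 of the others, and Elovl6 had 2130.5 in WT fluoxetine female 3, above 1708 to 1819.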

How the results depend on the processing

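Over all settings other than leaving out a library, 1366 of 1370 log2 differences of the 10 genes kept their state, called or not. None reversed a call, 1 lost it and 3 gained one, and 54 without a call changed sign. The main fit held 1 call, that of Fasn, so nearly all of the unchanged results are ones that stayed uncalled. For lithium against fluoxetine in WT-labelled mice the number of the 10 called was 1, and 2 by DESeq2, 0 with a Gm10221 term and 2 with the astrocyte covariate, the second being Fads2 (0.10 ± 0.03, adjusted p = 0.0184 by limma). In HT-labelled mice the astrocyte covariate called 1, Fads2 (0.12 ± 0.03, adjusted p = 0.0197). Leaving out 1 library gave 1 to 2 for lithium against fluoxetine in WT-labelled mice (2 without WT fluoxetine female 3 or 5, or WT lithium male 1 or 5, each adding Fads2), 0 to 1 for lithium in WT-labelled mice and for genotype among lithium mice (1 without WT lithium male 1 in each), and 0 elsewhere.

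Replicate numbers did not pair libraries: same-numbered libraries had a median r of 0.0010 over 141 pairs, others 0.0047 over 560. With the number as a block, 1 of the 10 was called for lithium against fluoxetine in WT-labelled mice and 0 in the other 11 comparisons. Over all genes, counts moved by more than 1.5 times in some settings. With the Gm10221 term, 129 were called for fluoxetine in WT-labelled and 184 in HT-labelled mice, and 908 and 218 for lithium against fluoxetine. For lithium against vehicle, which that term nearly repeats, 3 and 0 were called. Without libraries that hold those reads, fluoxetine called 140 and 96. With only the groups compared, fluoxetine called 158 in WT-labelled mice and lithium against fluoxetine called 377 in HT-labelled mice. The genotype label among lithium mice called 0 genes by limma, 14 by DESeq2, 8 with the stricter filter and 9 with the Gm10221 term, and sex called 83 by DESeq2, 13 with the block and 12 without Gm10221 libraries. Leaving out 1 library gave 0 to 81 genes for the label among lithium mice (81 without WT lithium male 1), 159 (without WT vehicle male 1) to 373 (without WT fluoxetine female 5) for fluoxetine in WT-labelled mice and 377 (without HT vehicle male 5) to 687 in HT-labelled mice. For lithium against fluoxetine it gave 1134 (without WT lithium male 3) to 2338 in WT-labelled mice and 670 (without HT lithium female 4) to 1573 in HT-labelled mice. Libraries without those reads could not be used for lithium.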

Other observations

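Single libraries held the extremes of several of the 10 genes at once. WT lithium male 1 had the lowest value of its arm for 7 of them: Acly, Scd1, Scd2, Fads1, Fads2, Elovl5 and Acsbg1. Its endothelial markers summed to 4596, below the 5108 to 7483 of the 9 others, and its myelin markers to 95649, below their 101695 to 170363, while its astrocyte markers at 144310 lay within the others' range of 139074 to 179954. HT vehicle male 1 was lowest of its arm for Scd2, Fads1, Fads2, Elovl5 and Acsbg1. Its endothelial markers were again lowest, at 5123 against 5540 to 6867, and its cortical neuron markers highest, at 16308 against 12714 to 16035. HT lithium female 1 was highest of its arm for 6: Acly, Acaca, Fasn, Fads1, Fads2 and Elovl6. The ratio of Scd2 to Scd1, in reads per kilobase of the principal transcript, ran from 5.113 to 8.999 over the 58 libraries with a median of 6.52. Among WT vehicle mice it ran from 5.85 to 6.76.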
